A study of Mus musculus with 4 samples.

Results

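The 8 genes described here cover the control of sterol synthesis and the export of sterols: Srebf1, Srebf2, Scap, Insig1, Insig2, Nr1h2, Abca1 and Abcg1. These members were chosen by gene symbol, and 8 of 8 symbols stood among the 23420 rows of each count file. The cells were a mouse large pre-B cell line deficient for the transcription factors Irf4 and Irf8 (Irf4/8-/-), so both groups carried that deficiency. Large pre-B cells are a cycling stage of B cell development that depends on interleukin 7. The control group, shLuc, had received a retrovirus with a green fluorescent protein (GFP) reporter and a hairpin RNA against luciferase, which mouse cells lack. The second group, shMyb, had received the same kind of virus with a hairpin against Myb. Each group had 2 RNA-seq libraries, each from a set of 12 wells, kept for 72 hours with 10 ng/ml of interleukin 7 and sorted for GFP. The line was grown on OP9 stromal cells, and all 4 libraries came from this 1 line. The spread behind each p-value is thus that of duplicate transductions, which may be technical.

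A cell keeps its sterol level steady through a sensor in the endoplasmic reticulum. SREBP proteins, the products of Srebf1 and Srebf2, are made as membrane precursors and held there by SCAP (Scap) together with an INSIG protein (Insig1 or Insig2) while sterols are plentiful. When sterols run low, SCAP carries the precursor to the Golgi, where proteases free a transcription factor that switches on genes of sterol and fatty acid synthesis, Insig1 and Srebf2 itself among them. Oxysterols work in the other direction through the nuclear receptor LXR (LXR-beta is the product of Nr1h2), which switches on the exporters ABCA1 and ABCG1 and also Srebf1. Dividing lymphocytes need new membrane, and sterol synthesis and export are known to be set against each other as they grow.

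The sequences just before the start sites of 3 members are shown because these 3 genes were called different between the groups and have an entry among the RefSeq promoters (build GRCm38.p6). Srebf2 is shown from chr15:82147019-82147180, plus strand, Insig1 from chr5:28071162-28071362, plus strand, and Nr1h2 from chr7:44553966-44554215, minus strand. Each stretch ends before the first base of the gene in GENCODE M21. Capitals mark the letters of 4 motifs searched on both strands: the sterol regulatory element bound by SREBP in a short form (TCACNCCA), the NF-Y box (CCAAT), the Sp1 box (GGGCGG) and the E-box (CACGTG).
Srebf2: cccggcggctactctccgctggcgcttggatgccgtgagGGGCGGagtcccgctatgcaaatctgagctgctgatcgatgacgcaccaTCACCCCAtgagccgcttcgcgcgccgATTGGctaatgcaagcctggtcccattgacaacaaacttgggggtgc
Insig1: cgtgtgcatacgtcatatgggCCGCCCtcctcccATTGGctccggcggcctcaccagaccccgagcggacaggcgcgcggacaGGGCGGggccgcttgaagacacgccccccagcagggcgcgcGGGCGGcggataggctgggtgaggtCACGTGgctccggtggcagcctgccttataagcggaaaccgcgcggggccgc
Nr1h2: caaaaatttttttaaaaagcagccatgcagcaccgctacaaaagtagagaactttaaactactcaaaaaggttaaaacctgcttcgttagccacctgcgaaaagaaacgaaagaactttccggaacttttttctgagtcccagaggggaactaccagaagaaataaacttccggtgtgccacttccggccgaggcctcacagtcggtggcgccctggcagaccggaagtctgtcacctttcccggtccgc

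In the Srebf2 stretch 1 sterol element lay 19 bases before 1 NF-Y box. The longer form TCACNCCAC was in no member window (1.05% of all), and the short form, which every match of the longer one contains, was added to the search after the sequence had been seen. In Insig1 an NF-Y box, 3 Sp1 boxes and an E-box were found, and in Nr1h2 none of the 4. Windows of 250 bases before the start were searched for 7 of the 8 members, 12 windows in all because some genes have several starts. Abcg1 had no entry. The short sterol element stood in 1 of 12 windows (8.33%) and in 3.67% of all 32851 RefSeq promoter windows of that length, the E-box in 3 of 12 (25%) and in 6.02%. The NF-Y box stood in 5 of 12 windows and in 33.8% of all, and the Sp1 box in 8 of 12 and in 32.7%. The core letters bound by MYB (AACNG) stood in 9 of 12 member windows (75%) and in 74.2% of all, a share near the background. Neither Srebf2 nor Nr1h2 held these letters, whereas Insig1 held them once. The DR4 element of LXR was in no member window and in 0.067% of all. Windows of 1 gene share sequence where their starts lie close, and a match of letters is not a measured binding site.

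The libraries held between 36573743 and 44682954 counts each. A gene listed at 0 could still have up to 3 counts, which is 0.0689 to 0.0799 CPM (counts scaled to a common library size with TMM factors). This limit and the counting intervals below cover counting error only. The gene targeted by the hairpin was checked first. Myb (chromosome 10, 21124935 to 21160984) stood at 616 and 600 CPM in the control libraries and at 617 and 639 CPM in the others, so its transcript was not lower in the libraries labelled shMyb (log2 fold change 0.05, 95% interval -0.03 to 0.12, edgeR adjusted p = 0.283). Its value was 0.11 with library totals alone (adjusted p = 0.0109) and 0.15 with the expression trend corrected (adjusted p = 6.1e-04), and it was called higher in both. It was -0.03 with GC content and length corrected (adjusted p = 0.684), and 0.02 both without shLuc replicate 2 and without shMyb replicate 2, with no call. Below, shMyb stands for the libraries labelled so, and each direction is drawn from that label alone. Of 12 B-lineage markers all were tested, 5 were higher and 6 lower, and they summed to 8072 to 8672 CPM. The shares over all tested genes were 30.6% called higher and 31.7% called lower. Stromal markers, which the OP9 feeder layer could bring in, summed to 84.7 to 103 CPM in shLuc and 65.0 to 72.4 CPM in shMyb. Of 15 stromal markers 14 were tested, with 5 lower and 2 higher. The markers did not move together: Fn1 (-1.52), Thbs1 (-1.45) and Bgn (-1.30) were among the lower ones, and Sparc (0.42) and Postn (1.01) were higher. The cells had been sorted for GFP, and whether feeder cells remained after the sort was not tested. Myeloid markers summed to 3.70 to 4.83 CPM in shLuc and 8.73 to 10.3 CPM in shMyb. Of 14 myeloid markers 7 were tested, with 5 higher and none lower, and Elane and Ctsg were at 0 in all 4 libraries. Csf1r (-0.40) and S100a8 (0.95) were tested and not called. Adipocyte markers (3 of 7 tested, none called, Cfd at 0) summed to 1.51 to 1.85 CPM in shLuc and 0.975 to 1.30 CPM in shMyb. T-lineage markers (3 of 9 tested, 1 higher, Cd4 and Cd8a at 0) summed to 99.7 to 102 CPM and 113 to 120 CPM. The T-lineage sum was almost wholly Lck (96.9 to 118 CPM), which rose by 0.23, while Tcf7 (-0.34) and Bcl11b (-0.25) were not called. The part of these markers in the results on the members was not tested.

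Of the 8 members, 7 passed the filter on low counts, and of these 3 fell (Abcg1, Insig1, Srebf2), 1 rose (Nr1h2) and 3 were not called (Srebf1, Scap, Insig2). A gene was called at a Benjamini-Hochberg adjusted p below 0.05 in edgeR's quasi-likelihood test over 12610 genes. In that comparison 62.2% of all tested genes were called, 30.6% higher and 31.7% lower, so 4 of 7 called members is a share near the background. None of the called members changed by as much as 2-fold. The median log2 fold change over the 7 tested members was -0.08, beside 0.0048 over all tested genes. The members' median ran from -0.14 without shMyb replicate 1 to -0.03 without shMyb replicate 2, and was -0.02 with library totals alone, -0.04 with the expression trend corrected and -0.31 with GC content and length corrected. With no low-count filter, where Abca1 enters, it was -0.05. The median over all genes moved as well, to 0.07 with library totals alone and -0.0058 with the expression trend corrected. Over all genes it was 0.04 with no low-count filter and -0.09 with GC content and length corrected. The levels in shLuc and shMyb did not overlap for any of the 7, which held for 82.1% of all tested genes.

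**Figure D1:**
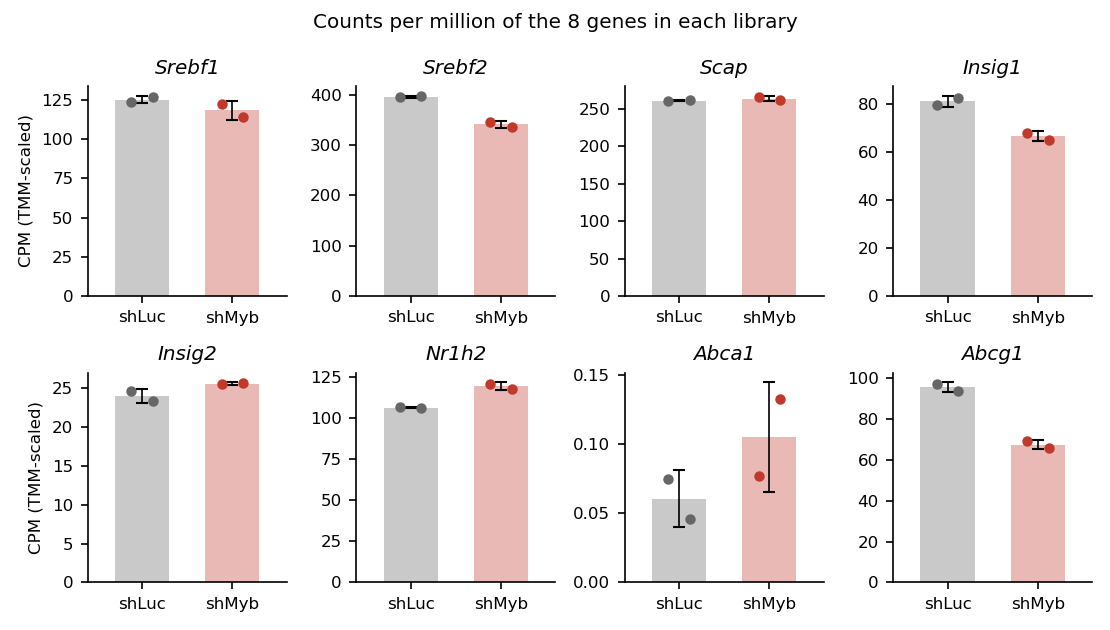
Level of each of the 8 genes in CPM (TMM-scaled, vertical axis, its own scale per panel and starting at 0) in the shLuc and shMyb libraries. Points are the 2 libraries of a group, bars their mean and error bars the SD; Abcg1, Insig1 and Srebf2 sit lower in both shMyb libraries and Nr1h2 higher, and Abca1 is at most 0.133 CPM.

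Srebf2 encodes SREBP-2, the factor that mainly drives sterol synthesis. The gene lies on chromosome 15 (82147181 to 82205379, plus strand, GRCm38). Srebf2 had 395 and 397 CPM in the controls, against 346 and 335 CPM in shMyb, so both shMyb libraries were below both controls. The means were 396 ± 1.51 and 341 ± 7.63 CPM (SD, n = 2 each), 13.9% lower in shMyb (log2 fold change -0.22, SE 0.04, edgeR adjusted p = 1.4e-05). Among all tested genes 46.6% had a smaller change, and 96.2% had a lower mean CPM. The fall was 0.13 with the expression trend corrected and 0.49 with GC content and length corrected, and it was called in both.

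Srebf1 encodes SREBP-1, whose forms 1a and 1c start at different promoters. Counts per gene do not separate these forms. The gene lies on chromosome 11 (60199089 to 60222581, minus strand), and 1.93% of its exon bases overlap Rai1 on the opposite strand. Srebf1 had 124 and 127 CPM in the controls, against 123 and 114 CPM in shMyb. The libraries of the groups did not overlap, but 1 shMyb library lay within 1 CPM of a control. Srebf1 was not called, at a log2 fold change of -0.08 (SE 0.04, edgeR adjusted p = 0.0758). A call of lower depended on single libraries: it appeared when shLuc replicate 1 was left out (-0.12, adjusted p = 0.0265) and when shMyb replicate 1 was (-0.14, adjusted p = 0.00463). It also appeared with no low-count filter (-0.10, adjusted p = 0.0350) and with GC content and length corrected (-0.34, adjusted p = 5.0e-11).

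The SREBP genes can be set side by side per length. Per kilobase of exon, Srebf2 was 2.504 and 2.453 times Srebf1 in shLuc and 2.213 and 2.308 times in shMyb. The ratios of the groups did not overlap, and an exact two-sided permutation test over the 4 libraries gave p = 0.333, the smallest that 6 relabellings allow.

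Scap encodes the escort that carries SREBP precursors to the Golgi. The gene lies on chromosome 9 (110333288 to 110384950, plus strand), and 13.2% of its exon bases overlap 5830462I19Rik on the opposite strand. Scap had 261 and 262 CPM in the controls, against 266 and 262 CPM in shMyb. The libraries differed by a few CPM, and the lower shMyb value was nearly equal to the higher control. Its log2 fold change of 0.02 (95% interval -0.06 to 0.09, adjusted p = 0.719) was the smallest of the 7, and 3.93% of tested genes moved by less. The value depended on scaling. Scap was called higher with library totals alone (0.08, adjusted p = 0.0391) and with the expression trend corrected (0.09, adjusted p = 0.0208). With GC content and length corrected it was called lower (-0.28, adjusted p = 9.2e-08).

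Insig1 and Insig2 encode related anchors that keep SCAP in the endoplasmic reticulum. Insig1 is a known SREBP target, while Insig2 is known to be less dependent on SREBP. Insig1 (chromosome 5, 28071363 to 28078662, plus strand) had 79.4 and 82.7 CPM in the controls, against 68.0 and 65.1 CPM in shMyb. Both shMyb libraries lay below both controls, by more than the spread within either group. It fell by 0.28 on the log2 scale (SE 0.04, 95% interval -0.37 to -0.20, adjusted p = 2.0e-06), 17.9% lower. The call held under each of the 15 alternatives run, at -0.33 to -0.22.

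Insig2 (chromosome 1, 121304353 to 121332589, minus strand) had 24.7 and 23.4 CPM in the controls, against 25.5 and 25.7 CPM in shMyb. The shMyb libraries were the higher ones, but the gap to the nearer control was smaller than the spread between the controls. Insig2 was not called (log2 fold change 0.09, 95% interval -0.02 to 0.21, adjusted p = 0.161), and with library totals alone it was called higher (0.16, adjusted p = 0.0253). Without shLuc replicate 2 its value was 0.04. Per kilobase of exon, Insig1 was 3.61 and 3.97 times Insig2 in shLuc and 2.99 and 2.85 times in shMyb. The ratio was lower in both shMyb libraries, and the exact two-sided permutation test gave p = 0.333, again the smallest possible. With 2 libraries a group, this test cannot reach 0.05.

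Nr1h2 encodes LXR-beta, the form of LXR made in most tissues. The gene lies on chromosome 7 (44549616 to 44553951, minus strand). Nr1h2 had 106 CPM in both controls, against 121 and 118 CPM in shMyb. Both shMyb libraries lay above both controls, and the controls were nearly identical. It rose by 12.3% (log2 fold change 0.17, SE 0.04, adjusted p = 4.0e-04). With GC content and length corrected the sign turned and the call ended (-0.10, adjusted p = 0.0683), beside a median of -0.09 over all genes in that fit. Nr1h2 has the highest GC content of the members, 60.6% in its longest transcript, above 96.7% of tested genes.

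Its relative Nr1h3, which encodes LXR-alpha and is typical of liver and macrophages, was at 0.477 ± 0.0724 CPM in shLuc and 0.625 ± 0.169 CPM in shMyb (SD, n = 2 each) and was not called (adjusted p = 0.360). Among the partners of LXR, Rxrb had 96.0 ± 1.54 and 100.1 ± 0.289 CPM (adjusted p = 0.170), and Rxra was near 1 CPM in both groups (1.15 ± 0.290 and 1.20 ± 0.493).

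Abcg1 encodes a half-transporter that moves sterols to lipoprotein acceptors. The gene lies on chromosome 17 (31057675 to 31117988, plus strand). Abcg1 had 97.1 and 93.6 CPM in the controls, against 69.0 and 65.9 CPM in shMyb. Both shMyb libraries lay below both controls, by several times the spread within either group. The means were 95.3 ± 2.43 and 67.5 ± 2.25 CPM (SD, n = 2 each), 29.2% lower (log2 fold change -0.50, SE 0.04, adjusted p = 1.3e-10). This was the largest change among the 7 tested members, and 76.2% of all tested genes moved by less. The call held under each of the 15 alternatives, at -0.67 to -0.44. Stromal and myeloid cells also express Abcg1. In the same libraries the summed stromal markers were lower in shMyb (65.0 to 72.4 against 84.7 to 103 CPM). Of the 14 tested, 5 were lower and 2 higher, and none was at 0 in all 4 libraries. The summed myeloid markers were higher (8.73 to 10.3 against 3.70 to 4.83 CPM). The part of stromal and myeloid cells in the Abcg1 result was not tested. In bulk libraries fewer cells of a type and less RNA per cell cannot be told apart.

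Abca1, the transporter that loads sterols and phospholipids onto lipid-poor apolipoproteins, was hardly counted. The gene lies on chromosome 4 (53030787 to 53159895, minus strand). Its counts were 3 and 2 in shLuc and 3 and 5 in shMyb, or 0.0751 and 0.0459 CPM and 0.0770 and 0.133 CPM. The exact 95% Poisson intervals of these counts overlapped, from 0.619 to 8.77 for a count of 3 and from 1.62 to 11.7 for the count of 5. Abca1 did not pass the filter on low counts, and a difference between the groups was not detectable at this depth.

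**Figure D2:**
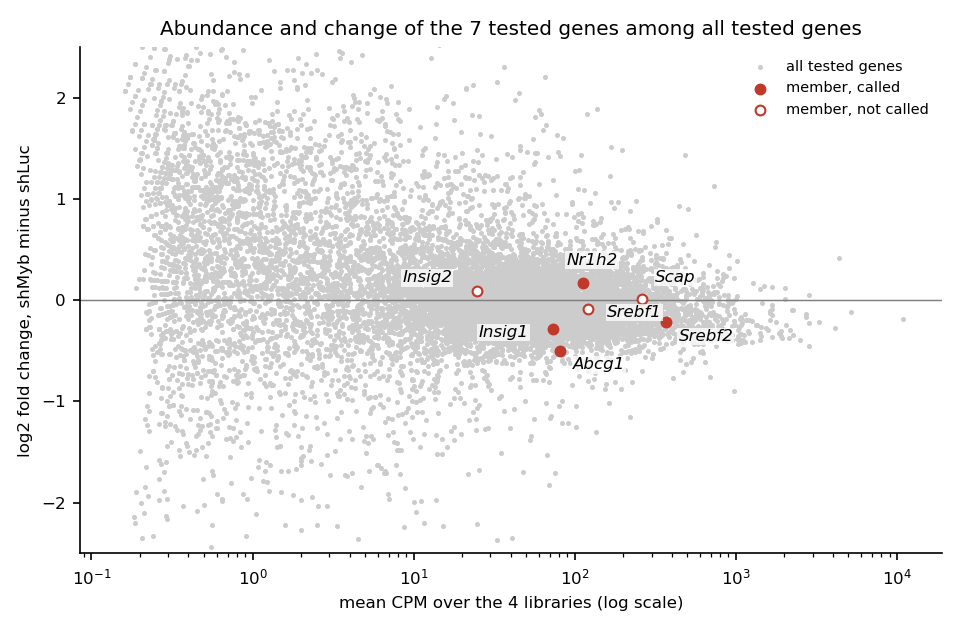
Log2 fold change (shMyb minus shLuc, vertical axis) against mean CPM over the 4 libraries (horizontal axis, log scale) for all 12610 tested genes (grey) and the 7 tested members (red, filled where called); 83 genes lie outside the vertical limits of 2.5. Insig2 is the member farthest left and Srebf2 the one farthest right, and Abcg1 lies lowest at -0.50.

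Levels of different genes can be compared as CPM per kilobase of exon. On this scale the order of mean levels in shLuc was Srebf2 (55.1), Scap (35.1), Nr1h2 (31.7), Insig1 (26.2), Srebf1 (22.2), Abcg1 (13.1), Insig2 (6.92) and Abca1 (0.00584). The ranges of neighbours in this order did not overlap over the 2 shLuc libraries. In shMyb, Nr1h2 (35.6) stood beside Scap (35.5) and Insig1 (21.5) beside Srebf1 (20.997), and the ranges of each of these pairs overlapped. Srebf2 remained the highest at 47.4, followed at the lower end by Abcg1 (9.24), Insig2 (7.37) and Abca1 (0.0101). Levels rest on the union of exons in GENCODE M21, and a transcript that uses fewer exons would have a higher level per kilobase.

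The members differed in how far the correction for GC content and length moved them. Srebf1 (58.4%), Srebf2 (57.9%), Scap (59.1%) and Nr1h2 (60.6%) had a GC content above 90.2% or more of tested genes. Insig1 (48.2%) and Insig2 (46.0%) stood above 41.4% and 29.9% of them. By exon length, Srebf2, Scap and Abcg1 exceeded 78.2% or more of tested genes, and Srebf1 65.1%. Insig1 exceeded 31%, Nr1h2 35.1% and Insig2 36.8%. The correction fitted GC content and length together, so their parts are not separated. After correction for GC content and length, Srebf1 went from -0.08 to -0.34, Srebf2 from -0.22 to -0.49, Scap from 0.02 to -0.28 and Nr1h2 from 0.17 to -0.10. Insig1 (-0.28 to -0.31) and Insig2 (0.09 to 0.09) hardly moved, and Abcg1, at 52.7% GC, went from -0.50 to -0.67. With that correction 5 members were called lower and none higher. Calls over all genes shifted as well, with 35.6% of them higher against 49.1% with TMM scaling and 60.1% with library totals alone.

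**Figure D3:**
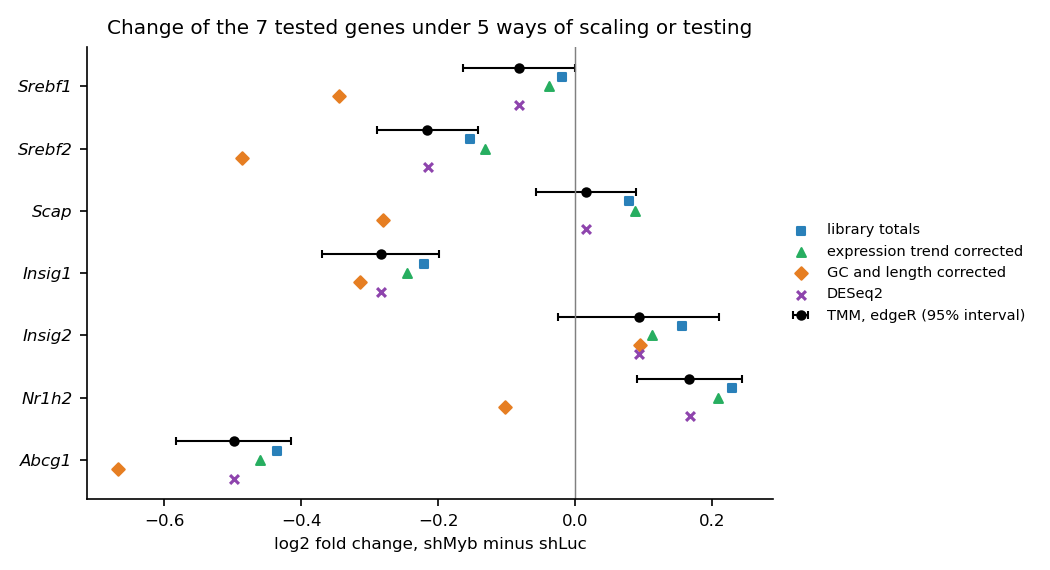
Log2 fold change (shMyb minus shLuc, horizontal axis) of the 7 tested members with TMM scaling in edgeR (black, with 95% intervals) and under 4 other ways of scaling or testing (coloured symbols). Abcg1, Insig1 and Srebf2 stay below 0 throughout, while Scap and Nr1h2 change side with GC content and length corrected, to -0.28 and -0.10.

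Genes of the surrounding pathways were counted over 5 lists, written with earlier results of these data known, so their counts are descriptions. Each count stands beside the 30.6% of all tested genes called higher and the 31.7% called lower. List medians under other settings stand beside all-gene medians of 0.07 with library totals alone and -0.09 with GC content and length corrected. Of 22 enzymes of sterol synthesis, all tested, 21 fell and 1 rose, with a median log2 fold change of -0.43 beside 0.0048 over all tested genes. The lower ones numbered 19 with library totals alone, 19 with DESeq2 and 20 with the expression trend corrected. The named enzymes were taken for their place in the pathway: Hmgcs1, at its entry, fell by 0.58 (SE 0.04), Idi1 by 0.76, Fdft1, which commits to sterols, by 0.54, Sqle by 0.65 and Lss by 0.42. These enzymes are known SREBP-2 targets. Their median of -0.43 stands beside -0.22 for Srebf2 and -0.28 for Insig1, and whether these sizes differ was not tested. Tm7sf2, a sterol reductase gene, was the 1 that rose (0.39, SE 0.12) from 4.92 ± 0.369 CPM. That call ended with DESeq2 (adjusted p = 0.0733), with the expression trend corrected (0.27) and without shLuc replicate 2 (0.31) or shMyb replicate 2 (0.26).

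Of 19 genes of fatty acid and lipid metabolism listed as driven by SREBP-1, 17 were tested, 13 fell and none rose, with a median of -0.47. Fads2, a desaturase, fell most, from 89.4 ± 3.71 to 44.2 ± 0.0453 CPM (SD, n = 2 each; -1.02, SE 0.04). Elovl6, a fatty acid elongase, fell by 0.76, the desaturase gene Scd2 by 0.61, Acaca, acetyl-CoA carboxylase, by 0.47, and Fasn, fatty acid synthase, by 0.37. Acly, which makes cytosolic acetyl-CoA, fell by 0.16, a call that ended with the expression trend corrected (-0.06). Srebf1 itself, at -0.08, was not called in the same fit.

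Of 23 genes of SREBP cleavage, transport and turnover, all tested, 13 fell and 1 rose, with a median of -0.13. That median was -0.07 with library totals alone, where 5 were higher, and -0.21 with GC content and length corrected, where 16 were lower. Mbtps1, the site-1 protease that makes the first cut, was at 168 ± 0.161 and 164 ± 1.5 CPM (SD, n = 2 each) and was not called (-0.04, adjusted p = 0.372). Mbtps2, the site-2 protease, fell by 0.16. This call was lost with library totals (-0.10), DESeq2 (adjusted p = 0.0822) and without shLuc replicate 2 (-0.11). Sec24d, a coat subunit of vesicles that leave the endoplasmic reticulum, fell most in this list (-0.83, SE 0.06), from 29.2 ± 0.432 to 16.4 ± 0.848 CPM. The ubiquitin ligase genes Rnf139 and Rnf145 fell by 0.26 and 0.27. Fbxw7, whose product marks nuclear SREBP for degradation, was the 1 that rose (0.19, SE 0.05).

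Of 24 genes of sterol uptake and handling, 22 were tested, 7 rose and 9 fell, with a median of -0.02. The share higher is near that of all tested genes. The median was 0.04 with library totals alone and 0.04 with the expression trend corrected, but -0.13 with GC content and length corrected, where 6 were higher and 11 lower. Over the fits without 1 library it ran from -0.05 (without shMyb replicate 1) to -0.01 (without shMyb replicate 2), with -0.05 also without shLuc replicate 1. Without shLuc replicate 1 the higher genes numbered 4, and the lower ones numbered 5 with library totals alone and 5 with DESeq2. Scarb1, a receptor for high-density lipoprotein, fell from 97.4 ± 0.255 to 70.7 ± 0.649 CPM (SD, n = 2 each; -0.46, SE 0.04). Soat1, which esterifies cholesterol for storage, fell most in the list (-0.63, SE 0.07), and Stard4, a sterol carrier and known SREBP-2 target, fell by 0.31. The lysosomal lipase gene Lipa fell by 0.26, and Npc2, which hands sterols out of the lysosome, was not called (-0.04, adjusted p = 0.415). Gramd1b, which encodes a sterol carrier between the plasma membrane and the endoplasmic reticulum, had the largest rise, from 1.68 ± 0.356 to 5.70 ± 0.223 CPM (1.77, SE 0.16).

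Mylip, an LXR target whose product degrades lipoprotein receptors, rose by 0.15, a call that ended with GC content and length corrected (0.09) and without shLuc replicate 1 (0.12) or shMyb replicate 2 (0.11). Lrp1, an endocytic receptor, fell by 0.43 from 6.32 ± 0.827 CPM. This call was lost with library totals (-0.36), DESeq2 (adjusted p = 0.0747) and without shLuc replicate 1 (-0.31) or shMyb replicate 1 (-0.23). Vldlr, at 0.214 ± 0.0546 CPM in shLuc, did not pass the filter on low counts.

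Of 24 LXR partners, LXR targets and efflux transporters, 19 were tested, 9 rose and 1 fell, with a median of 0.14. Without shLuc replicate 2 the higher genes numbered 4 and the median was 0.08. The correction for GC content and length left 5 genes higher and 5 lower, with a median of -0.04. Of the LXR targets taken for their roles, Lpcat3, a phospholipid remodelling enzyme, was at 48.0 ± 1.53 and 47.3 ± 1.41 CPM and was not called (-0.02, adjusted p = 0.709), and neither was Arl4c (-0.04, adjusted p = 0.448). Smpdl3a, another LXR target, named after its values were seen, rose by 1.21 (SE 0.33) from 0.547 ± 0.254 to 1.26 ± 0.366 CPM, a call that ended without shLuc replicate 2 (0.78) or shMyb replicate 2 (0.88). In the same list Pltp (0.06, adjusted p = 0.835) and Lpl (-0.70, adjusted p = 0.277), also low in CPM, were not called. Cyp27a1, which makes an oxysterol, had the largest fitted rise of the list (1.74, SE 0.60), on counts of 5 and 3 in shLuc and 10 and 15 in shMyb. It passed the low-count filter only through the group where it was high, and with a filter of 1 CPM in 2 libraries it was not tested. Its call ended with DESeq2 (adjusted p = 0.132), the expression trend corrected (1.05) and without shLuc replicate 2 (1.35) or shMyb replicate 2 (1.39). Tmem135 was the 1 that fell (-0.21, SE 0.04). Myeloid cells express several genes of this list, and the summed myeloid markers were higher in the same shMyb libraries (8.73 to 10.3 against 3.70 to 4.83 CPM, with Elane and Ctsg at 0). Their part in the counts of this list was not tested.

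Other ABC transporter genes can be set beside Abcg1, with no test of the difference. Abca7, a relative of Abca1, rose from 47.8 ± 3.47 to 66.5 ± 2.81 CPM (SD, n = 2 each; 0.48, SE 0.05). Abca2 rose by 0.14, but with GC content and length corrected it was called lower (-0.13, adjusted p = 0.0204), and without shLuc replicate 2 the call ended (0.08). Abcg4, the closest relative of Abcg1, was at 0.229 ± 0.0648 and 0.261 ± 0.0302 CPM and was not called (adjusted p = 0.755).

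**Figure D4:**
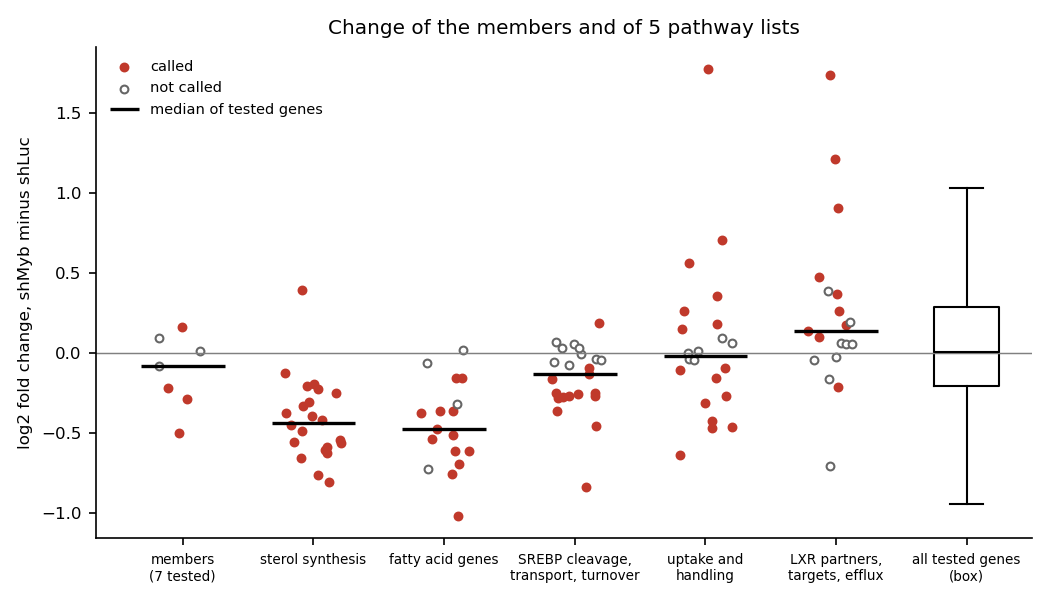
Log2 fold change (shMyb minus shLuc, vertical axis) of each tested gene among the members and 5 pathway lists (points, filled where called; horizontal position within a list is random), with the list median as a black line and all tested genes as a box of quartiles with whiskers to 1.5 times the box height, without the points beyond. The sterol synthesis and fatty acid lists lie almost wholly below 0, with medians of -0.43 and -0.47, and the LXR list mostly above, at 0.14.

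Likeness was measured as the root mean square distance, over the 4 libraries, between log2 CPM values centred on each gene's mean, among 109 other tested genes of the members and lists. With 2 groups of 2 libraries this distance mainly reads the size of the group difference. Insig1 was nearest to Pgrmc1 (0.00642) and Erlin1 (0.0142), and Srebf2 to Sc5d (0.0108) and Sec23a (0.0177). Abcg1 was nearest to Nsdhl (0.0220) and Acaca (0.0249), which are genes of sterol and fatty acid synthesis. Nr1h2 was nearest to Osbpl9 (0.0114) and Fbxw7 (0.0159), Scap to Gpam (0.0124) and Npc1 (0.0148), Insig2 to Ncoa6 (0.00779) and Rxrb (0.0238), and Srebf1 to Snx17 (0.0148) and Arl4c (0.0251). No member had another member among its 2 nearest genes.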

How the data were processed

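RNA was measured in 4 libraries, grouped by their titles. The deposited values are raw counts per gene symbol, 1 library per file. FastQC, STAR, HTSeq, DESeq2 and the mm10 build appear, per the submitters' processing notes, without roles or versions. Libraries came from a directional kit, per the labels' protocols. For the counting, strand setting and annotation: not given in the sources used here. Overlapping genes on opposite strands may not be separated.

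The test was edgeR's quasi-likelihood test (version 4.0.16, R 4.3.3; filterByExpr with a minimum count of 10, TMM, glmQLFit with robust=TRUE), with group alone in the model. Its p-values were Benjamini-Hochberg adjusted over 12610 genes, and genes were called below 0.05. A standard error is the log2 fold change over the square root of F. Values with ± are means and SD. Symbols were matched to GENCODE M21 (GRCm38, also called mm10), 21712 by name and 1256 by an older symbol, and 452 were not matched. The members and lists were chosen with earlier results of these data known, and the 5 lists matched 3 entries by an older symbol. Named genes were the members, Myb, 34 genes taken for their roles, the largest called rise and fall of each list, and the 2 nearest genes of each member. Smpdl3a, Pltp, Lpl and the cell type markers were named outside this rule. Some genes that this rule names are not reported here. Sequences are RefSeq's. Alternatives were RLE scaling, library totals alone, 2 other filters, robust=FALSE, DESeq2 1.42.0, limma-voom (limma 3.58.1), a replicate block, cyclic loess offsets for the expression trend, offsets from a smooth fit on GC content and length (mgcv), and leaving out each library. A crossed block was added after seeing the data.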

Additional observations from a re-analysis of the deposited data

How the results depend on the processing

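Srebf2, Insig1 and Abcg1 kept their direction and their call under each of the 15 alternatives run. With GC content and length corrected, Nr1h2 (-0.10) and Scap (-0.28) turned, Srebf1 was called (-0.34), and 0 members were higher and 5 lower, against 1 and 3. The LXR and efflux list then had 5 higher and 5 lower. Library totals alone called Myb (0.11), Scap (0.078) and Insig2 (0.16) and gave 3 members higher. In the lists they gave 1 fatty acid gene and 5 genes of SREBP cleavage higher, and 5 of uptake and handling lower. The expression trend correction called Myb (0.15) and Scap (0.087) and gave 2 members higher, 0 sterol enzymes higher and 2 LXR list genes lower. DESeq2 gave 0 sterol enzymes higher and 5 uptake genes lower. Srebf1 was called with no low-count filter (-0.098). The cause of these changes was not tested.

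Over the fits that left out 1 library, Srebf1 ran from -0.14 to -0.032. Genes called higher ran from 0 to 1 for sterol synthesis, 1 to 2 for SREBP cleavage, 4 to 7 for uptake and handling and 4 to 8 for the LXR list. In these fits the group with a lone library is assumed to vary like the other.

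Same-numbered libraries share only a number in the labels, and their deviations correlated at -0.195. With the replicate block, 3632 genes were higher and 3709 lower, against 3855 and 3994, Abcg1 stood at -0.50, and no member's call changed. A crossed block, added after seeing the data, gave 4258 higher and 4335 lower and called Srebf1 (-0.082). Depth limits Abca1, whose counts of 2 to 5 allow no comparison, and the small differences of Srebf1, Scap, Insig2 and Nr1h2 change with scaling or correction.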
